A study of Mus musculus with 6 samples.

Results

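Cytochrome P450 genes (symbols beginning with Cyp and a digit, Cyp51 left out) were described in intestinal tumors of 6 mice, 3 with a duodenal tumor and 3 with a cecal tumor, each hybridised to 1 Affymetrix mouse array. Members were the 75 probe sets, of 22690 on the array, whose platform annotation named exactly 1 such gene. They covered 62 of the 12393 genes that some probe set named singly. A further 4 probe sets named several genes with a P450 among them and were left out. Both groups shared the Apc1638N allele, a mutation of a tumor suppressor that predisposes mice to tumors of the gut, and both were deficient in the retinoblastoma gene Rb1. The sources used here do not say how Rb1 was removed, or give age or strain. Per the labels, duodenal samples could include pyloric tumor tissue, from the stomach's outlet. Normal gut and tumors that keep Rb1 were not analysed here, so each difference lies between tumors of 2 sites that also differ as normal tissues.

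Cytochrome P450 enzymes carry a haem group and insert an oxygen atom into their substrates, using electrons passed on by a reductase or a ferredoxin. Families 1 to 4 act on foreign chemicals, fatty acids and eicosanoids, and the higher-numbered families on sterols, bile acids, steroid hormones, retinoic acid and vitamin D. The liver holds most P450 enzymes, and the gut epithelium, mainly its mature absorptive cells, holds a smaller set that meets chemicals from food and bacteria first. Many genes of a subfamily lie side by side in the genome as copies of each other, so probe sets of one copy can also bind its neighbours. An Affymetrix name that ends in _s_at marks a probe set known to match several transcripts.

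Most P450 genes were too dim to be read in these tumors. The level for a readable intensity was the 40th percentile of its array, 92.4 to 100.6. A probe set was tested when it was above that level on at least 3 of the 6 arrays. By this rule 19 of the 62 genes, with 22 probe sets, were tested. Of the other 43 genes, 38 stayed below the level on every array, and 5 were above it on 1 or 2 arrays. Of the 19 genes, 10 were above it on all 6 arrays. A gene that passed only through the site where it was bright had to differ, so counts over the 19 do not speak for all members.

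Of the 19 tested genes, 3 were higher and 1 was lower in cecal tumors (limma, adjusted p under 0.05, p-values adjusted over all 13866 tested probe sets). Over all 8129 tested genes 10.5% passed, 5.71% higher and 4.75% lower, against 21.1% of the tested P450 genes. Counted by probe set, 4 of 22 P450 probe sets passed, against 9.30% of all tested. Without the filter, 5 of the 75 passed, against 5.03% of all. The genes that passed were all of family 2: Cyp2c55, Cyp2d34 and Cyp2d26 were higher, and Cyp2c23 was lower. Of these, Cyp2c55, Cyp2d34 and Cyp2c23 passed the filter only through the site where they were bright, so they had to differ. The 21.1% is therefore a description. The values of the sites did not overlap for 6 of the 19 genes, or 31.6%, against 31.2% over all tested genes. Log2 folds, given throughout as cecal minus duodenal on the log2(intensity + 16) scale, ran from -1.57 to 5.17. Their median was 0.27 against -0.05 over all tested genes, and the median size regardless of sign was 0.52 against 0.21. With the replicate number as a block, a pairing taken from the arrays' deviations and not from the labels, 6 of the 19 passed. Of these 3 were higher and 3 lower, and 12.7% of all tested genes passed in that fit.

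**Figure D1:**
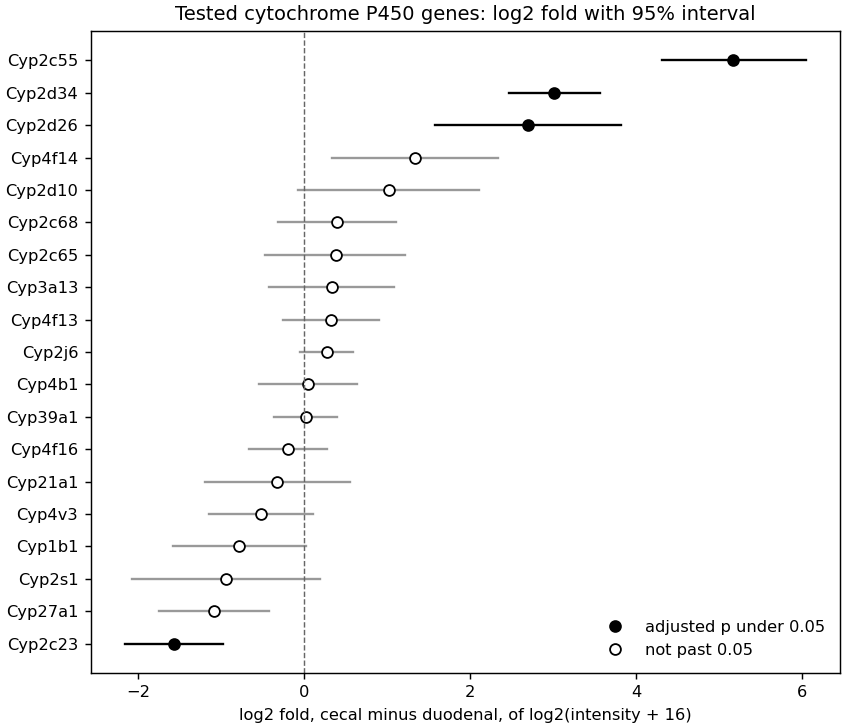
Log2 fold (cecal minus duodenal) of each of the 19 tested P450 genes, with its 95% interval from limma; filled points passed the test at an adjusted p of 0.05. Cyp2c55, Cyp2d34 and Cyp2d26 stand to the right and Cyp2c23 to the left, while the intervals of most other genes cross 0.

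The promoters of 4 genes are shown because they pair a gene that passed with a relative that did not: the neighbours Cyp2c55 and Cyp2c65, and the cluster members Cyp2d26 and Cyp2d10. Sequences are from RefSeq, build GRCm38.p6, 5′ to 3′ on the gene's strand, from 250 bases before to 50 bases after the start. That table held a promoter for 45 of the 62 genes, and none was found there for Cyp2d34 and Cyp2c23. Capitals mark every match, on either strand, to 5 motifs. The Ahr-Arnt core is GCGTG. The Cdx motif is TTTATG (or ending in T), and the Gata motif is AGATAA (or beginning with T). The nuclear receptor motif is AGGTCA and the Hnf4 motif is CAAAGTCCA.
Cyp2c55 (chr19:39006769-39007068, plus strand): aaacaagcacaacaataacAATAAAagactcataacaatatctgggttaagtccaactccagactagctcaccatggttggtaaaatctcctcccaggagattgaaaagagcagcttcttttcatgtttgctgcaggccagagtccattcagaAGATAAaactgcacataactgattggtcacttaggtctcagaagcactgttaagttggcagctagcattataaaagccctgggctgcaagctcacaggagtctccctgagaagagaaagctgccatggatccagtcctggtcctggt
Cyp2c65 (chr19:39060756-39061055, plus strand): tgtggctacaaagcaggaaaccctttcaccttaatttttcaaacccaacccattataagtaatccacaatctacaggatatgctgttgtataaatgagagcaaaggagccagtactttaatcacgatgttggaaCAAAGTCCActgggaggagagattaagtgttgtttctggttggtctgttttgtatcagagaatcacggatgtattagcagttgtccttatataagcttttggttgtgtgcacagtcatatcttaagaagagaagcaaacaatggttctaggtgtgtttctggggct
Cyp2d26 (chr15:82794196-82794495, minus strand): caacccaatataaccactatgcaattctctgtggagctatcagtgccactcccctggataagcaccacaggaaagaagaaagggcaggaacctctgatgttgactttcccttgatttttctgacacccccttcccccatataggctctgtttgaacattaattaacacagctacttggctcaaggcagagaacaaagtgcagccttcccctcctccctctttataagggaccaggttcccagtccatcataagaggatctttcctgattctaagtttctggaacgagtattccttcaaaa
Cyp2d10 (chr15:82407145-82407444, minus strand): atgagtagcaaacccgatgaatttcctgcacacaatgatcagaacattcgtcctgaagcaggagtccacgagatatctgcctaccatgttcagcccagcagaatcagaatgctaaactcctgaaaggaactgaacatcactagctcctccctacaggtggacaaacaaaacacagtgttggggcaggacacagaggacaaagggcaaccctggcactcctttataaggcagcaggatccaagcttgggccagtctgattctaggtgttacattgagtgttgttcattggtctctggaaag
The Cyp2c55 window held a Cdx match at bases 20 to 25 and a Gata match at bases 154 to 159. The Cyp2c65 window held an Hnf4 match at bases 135 to 143, and neither Cyp2d window held any of these letters. A Cdx match was found in 15 of 52 P450 promoters, a share of 28.8% against 27.6% of all 32851 promoters, and a Gata match in 16, 30.8% against 18.6%. The Hnf4 letters were in 6 of the 52, 11.5% against 0.475%, those of Cyp3a16, Cyp3a11, Cyp8b1, Cyp2c65, Cyp2c68 and Cyp2c70. The Ahr-Arnt core was in 11, 21.2% against 32.4%, and AGGTCA in 13, 25% against 16.3%. Over the 18 promoters of tested P450 genes the counts were 1 with a Cdx match, 4 with Gata, 2 with Hnf4, 5 with the Ahr-Arnt core and 0 with AGGTCA. P450 promoters are partly copies of each other, so these shares are descriptions, and no match was tested as a binding site.

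Cyp2c55, a P450 of the colon and cecum that hydroxylates arachidonic acid, had the largest fold of the 19 genes. Its intensity (probe set 1419582_at, chromosome 19) was 99.2, 36.8 and 91.1 in duodenal tumors 1, 2 and 3 respectively. It was 3155.2, 4803.2 and 1982.5 in cecal tumors 1, 2 and 3. Each duodenal value lay below its array's 40th percentile and all cecal arrays were far above it. The mean was 3314 ± 1417 (SD, n = 3) in cecal tumors, at least 31.0-fold higher there, taking the dim site at the 40th percentile (log2 fold 5.17 ± 0.38 SE, limma adjusted p = 2e-04). As in every bulk sample here, fewer cells of a type and less RNA per cell cannot be told apart. Large intestinal enterocyte markers moved with it: 5 of 5 tested (Car1, Aqp8, Slc26a3, Ceacam1 and Guca2a) were higher in cecal tumors. The summed intensity of the 6 markers measured was 4385 to 6322 in duodenal and 27971 to 33665 in cecal tumors, and their part in the result was not tested.

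The next gene along chromosome 19, Cyp2c65, a P450 of the gut that also acts on arachidonic acid, gave a different picture. Its probe set (1429994_s_at) read 2501.4, 1331.9 and 2879.3 in duodenal tumors and 4073.5, 3086.9 and 1674.4 in cecal ones. It was bright on every array and the sites overlapped. The log2 fold was 0.38, with a 95% interval of -0.47 to 1.22 (limma adjusted p = 0.603). Cyp2c68, further along the cluster, read 96.3, 58.5 and 118.8 against 89.7, 184.5 and 105.2, with a log2 fold of 0.40 (interval -0.32 to 1.11, limma adjusted p = 0.507). It was near the 40th percentile on most arrays.

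Cyp2c23, an arachidonic acid epoxygenase and the last Cyp2c gene in order along chromosome 19, was lower in cecal tumors. Its probe set (1424576_s_at) read 152, 121.5 and 225.6 in duodenal tumors and 35.7, 52.2 and 44.8 in cecal ones. Every duodenal array was above the 40th percentile and every cecal array was below it. Duodenal tumors were at least 1.67-fold higher (log2 fold -1.57 ± 0.26 SE, limma adjusted p = 0.00804). Gastric surface and antral mucous markers moved with it: all 8 measured (Gkn1, Gkn2, Tff1, Tff2, Muc5ac, Anxa10, Cldn18 and Psca) were lower in cecal tumors. Their summed intensity was 56005 to 84487 in duodenal and 575 to 813 in cecal tumors. The small intestinal markers Fabp1 (log2 fold -6.19) and Mttp (-3.13), of 4 tested, and the chief cell marker Pgc (-3.10) were lower too. The rest of those 4, Fabp2 (1.71, limma adjusted p = 0.0811) and Apob (0.48, adjusted p = 0.524), had positive folds and did not pass. The part of these markers in the result was not tested. The other 7 Cyp2c genes measured, Cyp2c29, Cyp2c37, Cyp2c38, Cyp2c39, Cyp2c50, Cyp2c54 and Cyp2c70, are mostly liver enzymes and did not exceed 78.8 on any array.

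The Cyp2d genes lie together on chromosome 15, and all 3 tested genes of the cluster had positive folds. Cyp2d34 (1425069_at) read 41.6, 27.6 and 35.5 in duodenal tumors and 532.2, 301.9 and 373.9 in cecal ones. It was below the level on every duodenal array and above it on every cecal one, at least 3.90-fold higher in cecal tumors (log2 fold 3.01 ± 0.24 SE, limma adjusted p = 0.000281). Cyp2d26 (1448683_at) read 169.6, 48.8 and 297.3 in duodenal tumors and 870.4, 984.2 and 1145.8 in cecal ones. Relative to its mean, Cyp2d26 varied more among duodenal than among cecal tumors, and the sites did not overlap. It was 171.9 ± 124.3 in duodenal and 1000.1 ± 138.4 in cecal tumors (SD, n = 3 each; log2 fold 2.70 ± 0.49 SE, limma adjusted p = 0.0122).

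Cyp2d10 (1418113_at) read 34.2, 46.7 and 179.1 in duodenal tumors and 209.9, 123.6 and 145.4 in cecal ones. Duodenal tumor 3 lay among the cecal values, and the gene did not pass (log2 fold 1.02, interval -0.08 to 2.11, limma adjusted p = 0.248). Without that tumor the log2 fold was 1.62 and it passed (adjusted p = 0.021). Cyp2d9, not tested because only cecal tumors 1 and 3 were above the 40th percentile, read 10.6, 14.7 and 59.1 in duodenal tumors and 149.1, 78.2 and 148.5 in cecal ones, with no overlap. Cyp2d12 read 4.7, 11.8 and 2.8 against 33.9, 23.9 and 28, all below the level. Cyp2d13, annotated as a transcribed pseudogene, and Cyp2d22 overlapped between the sites, and only Cyp2d22 in cecal tumor 1 reached the level. Since the Cyp2d genes are close copies, the probe sets may share signal, and the cluster's members are not independent readings. Besides the large intestinal enterocyte markers given above, 3 of 4 tested goblet cell markers, Tff3, Spink4 and Atoh1, were higher in cecal tumors. The other, Fcgbp, had a log2 fold of the opposite sign, -0.30, and did not pass (limma adjusted p = 0.277). The goblet list summed to 11461 to 17181 in duodenal and 23762 to 28711 in cecal tumors, and the part of either list was not tested.

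**Figure D2:**
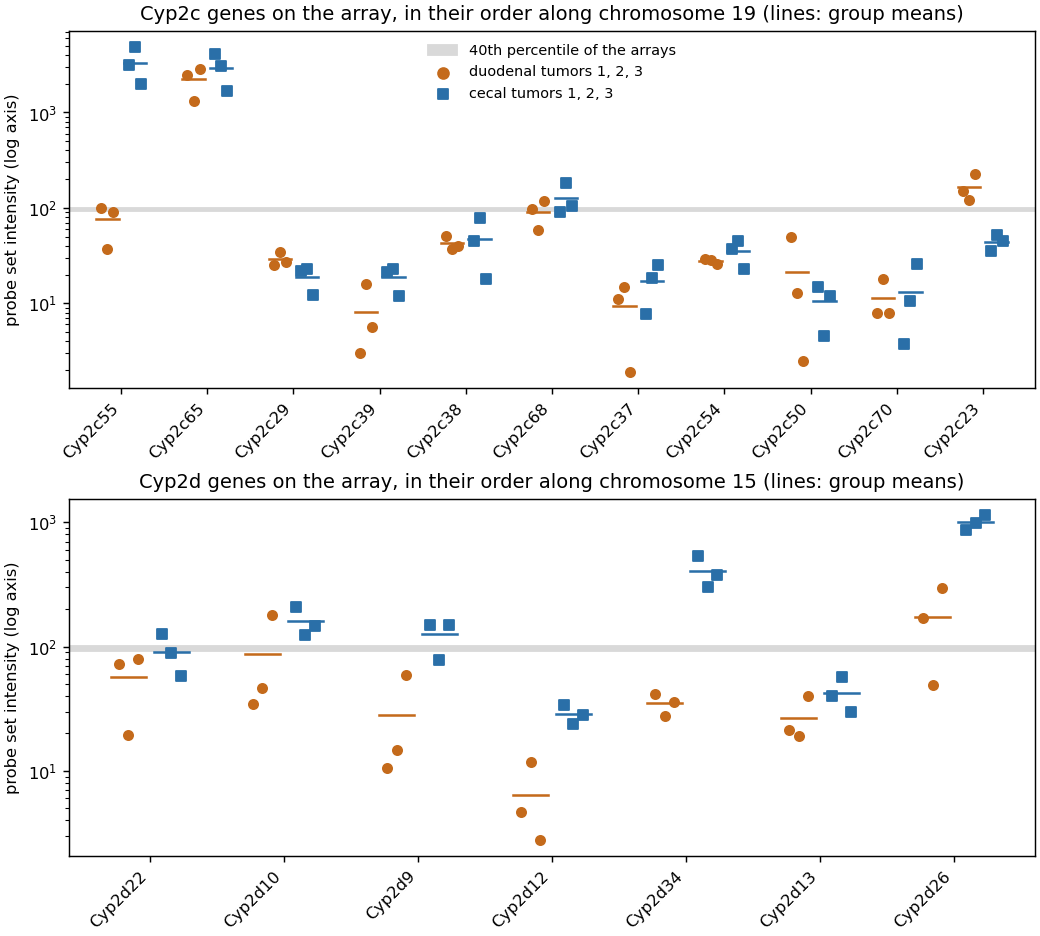
Intensity (log axis) of each measured Cyp2c gene (top) and Cyp2d gene (bottom) on the 3 duodenal (circles) and 3 cecal arrays (squares), in order along the chromosome, with group means as lines and the 40th percentile level of 92.4 to 100.6 as a grey band. Cyp2c55 and Cyp2d34 cross the band between the sites, Cyp2c23 crosses it the other way, and most Cyp2c genes lie below it in all tumors.

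The remaining tested family 2 genes did not pass. Cyp2s1, an epithelial P450 outside the liver that the Ahr pathway can induce, read 2135.7, 893.8 and 1651.5 in duodenal tumors and 1206.6, 1081.6 and 330.4 in cecal ones. Cecal tumor 3 was the lowest and the sites overlapped (log2 fold -0.94, interval -2.07 to 0.19, limma adjusted p = 0.303). Cyp2j6, an arachidonic acid epoxygenase of the gut, read 504, 461.5 and 606.6 in duodenal tumors and 629.9, 627.9 and 640.2 in cecal ones. The sites did not overlap, but the log2 fold was only 0.27 (interval -0.05 to 0.59, limma adjusted p = 0.289). Cyp2b10, the classic target of the xenobiotic receptor CAR, was above the level in duodenal tumor 1 alone, where 1425645_s_at read 112.2, with 29.5 and 98.5 in the other duodenal tumors and 22.4 to 38.5 in cecal tumors. Cyp2e1, the ethanol-metabolising P450, stayed at or below 35.3, and Cyp2f2, a lung P450, at or below 30.8. Cyp2a12, Cyp2b9, Cyp2b13, Cyp2b19 and Cyp2g1 did not exceed 33.4, and Cyp2j5, Cyp2j9 and Cyp2j13 did not exceed 45.3.

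Cyp3a13, the intestinal member of the drug-metabolising family 3, was bright in all tumors and did not separate the sites. It read 787, 480.5 and 1238.5 in duodenal tumors and 1301.3, 934.4 and 771.1 in cecal ones (log2 fold 0.33, interval -0.43 to 1.08, limma adjusted p = 0.614). Cyp3a11, the main liver member and a target of the receptor PXR, read 68.3, 37.1 and 121.5 against 2.3, 27.5 and 25.5. The sites did not overlap, yet only duodenal tumor 3 was above the level, so it was not tested. Cyp3a16, Cyp3a25 and Cyp3a44 stayed at or below 35.6.

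Of 10 family 4 genes, which hydroxylate the far end of fatty acids, 5 were tested and none passed by limma, with 1 at an unadjusted p under 0.05. Cyp4f14, a leukotriene hydroxylase, read 272.8, 120.4 and 175.9 in duodenal tumors and 560.4, 827 and 238.6 in cecal ones. Cecal tumor 3 fell among the duodenal values (log2 fold 1.34, interval 0.34 to 2.34, limma adjusted p = 0.102). Without that tumor the log2 fold was 1.83 and the gene passed (adjusted p = 0.0169). Cyp4f13 (log2 fold 0.32), Cyp4f16 (-0.20), Cyp4b1 (0.04) and Cyp4v3 (-0.52) had adjusted p-values of 0.299 to 0.95. A second Cyp4f16 probe set had the opposite sign, 0.22, and did not pass either (adjusted p = 0.512). Cyp4f15 was above the level in duodenal tumor 3 alone, at 159.3, and Cyp4f18 did not exceed 27.7. The Cyp4a genes that PPAR alpha controls, Cyp4a12a, Cyp4a14 and Cyp4a31, stayed at or below 29.6.

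**Figure D3:**
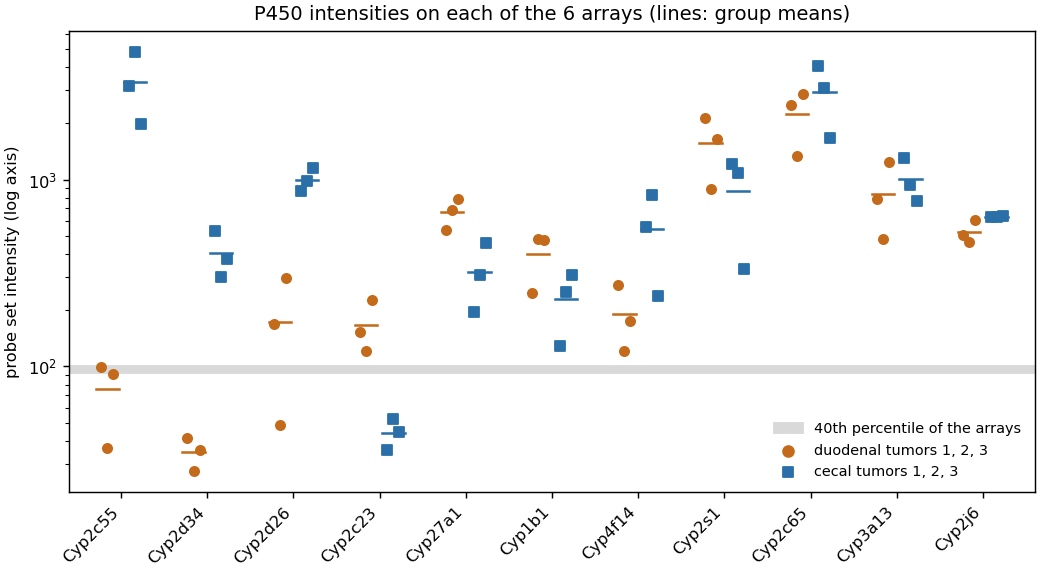
Intensity (log axis) of 11 P450 genes on the 3 duodenal (circles) and 3 cecal arrays (squares), with group means as lines and the 40th percentile level as a grey band. The first 4 genes passed the test without overlap, and Cyp27a1 and Cyp2j6 also show no overlap.

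In family 1, Cyp1b1, an Ahr-regulated P450 of connective tissue and other cells outside the liver, read 245.9, 478.4 and 471.8 in duodenal tumors and 128, 250.7 and 307.4 in cecal ones. Each cecal tumor was lower than the duodenal tumor of the same number, although the labels do not pair the tumors and the sites overlapped. It did not pass (log2 fold -0.78 ± 0.35 SE, limma adjusted p = 0.223), but did with the replicate number as a block (-0.78 ± 0.15, adjusted p = 0.0173). A second Cyp1b1 probe set (-0.70) fell short in both fits (adjusted p = 0.227, and 0.0861 with the block). Of 7 fibroblast markers Col3a1 alone passed at its brightest probe set, higher in cecal tumors. Second probe sets of Col1a1 (log2 fold 0.71, limma adjusted p = 0.0316) and Col1a2 (0.70, adjusted p = 0.0377) also passed. With the block the brightest Col1a1 probe set passed too (0.85, adjusted p = 0.0101). The 7 markers had a summed intensity of 11810 to 15049 in duodenal and 16458 to 20805 in cecal tumors. Their part in the Cyp1b1 values was not tested. Cyp1a1 and Cyp1a2, the inducible Ahr targets, stayed at or below 67.3 on every array.

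Among enzymes of bile acid and oxysterol synthesis, Cyp27a1, a mitochondrial sterol hydroxylase that macrophages also use, read 537.8, 689.6 and 790.2 in duodenal tumors and 195.3, 308.8 and 459.1 in cecal ones. Every cecal tumor was below every duodenal tumor. It narrowly missed the threshold (log2 fold -1.09 ± 0.29 SE, limma adjusted p = 0.0515) and passed with the block (-1.09 ± 0.17, adjusted p = 0.00665). It also passed without cecal tumor 3 (log2 fold -1.38, adjusted p = 0.0163), and over the leave-one-out fits its adjusted p ran up to 0.152. None of 6 macrophage markers passed. Their summed intensity, to which Lyz2 gave the most, was 7226 to 8278 in duodenal and 8790 to 10664 in cecal tumors. Cd68 read 277.5 to 297.6 in duodenal and 257.4 to 266.6 in cecal tumors (log2 fold -0.14). All the other macrophage markers had log2 folds of the opposite sign, 0.06 to 0.4. The part of these markers in the Cyp27a1 values was not tested. Cyp39a1, an oxysterol hydroxylase, read 192.8 ± 29.9 and 194.3 ± 13.9 (SD, n = 3 each; log2 fold 0.02, interval -0.36 to 0.40, limma adjusted p = 0.964). Cyp7a1, the rate-limiting enzyme of bile acid synthesis in liver, Cyp7b1 and Cyp8b1, and the brain enzyme Cyp46a1, did not exceed 70.3.

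P450 enzymes of hormone and vitamin pathways were mostly below the level. Cyp21a1, an adrenal steroid hydroxylase, was tested at 166.3, 139.8 and 69.2 in duodenal tumors and 52.3, 145.8 and 94.6 in cecal ones and did not pass (log2 fold -0.33, limma adjusted p = 0.666). The steroidogenic genes Cyp11a1, Cyp11b2 and Cyp17a1 did not exceed 26.9. Cyp26a1, which clears retinoic acid, did not exceed 69.9, and Cyp24a1 and Cyp27b1, which inactivate and activate vitamin D, did not exceed 43.9. Markers of steroid-producing cells, none bright enough to be tested, summed to 80.7 to 126.4 in duodenal tumors and 107.8 to 125.9 in cecal ones. Liver markers were mixed. Of 8 measured, Fgb, Fgg and Ahsg did not exceed 16.7 on any array, whereas Ttr read 1112.6 to 3450.5 and Alb reached 2168.4 in duodenal tumor 2, against 45.8 to 210.5 elsewhere. Of the 4 tested, Tat was higher and Cps1 lower in cecal tumors, and Alb and Ttr did not pass. The list summed to 3759 to 5518 in duodenal tumors and 1541 to 2688 in cecal ones. The part of liver markers in the P450 values was not tested.

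The spread within a site was uneven in duodenal tumors. Duodenal tumor 2 was the lowest of the duodenal tumors for 13 of the 22 tested probe sets, against 34.7% of all tested probe sets, and it held the lowest duodenal value of Cyp2c55, Cyp2c65, Cyp2c23, Cyp2d26, Cyp2d34, Cyp2s1, Cyp3a13 and Cyp4f14. Among cecal tumors no such order was seen: tumor 1 was the lowest for 9 of the 22, tumor 2 for 5 and tumor 3 for 8, the last against 32.9% of all tested probe sets. Tumor 3 held the lowest cecal value of Cyp2c55, Cyp2c65, Cyp2s1, Cyp3a13 and Cyp4f14. The absorptive cell genes Fabp1 and Mttp were also lowest in duodenal tumor 2, at 683.8 and 214.3 against 4236.3 and 861.1 in tumor 1 and 4630.3 and 662.7 in tumor 3. Aqp8, a colon water channel, was lowest in cecal tumor 3, at 617.9 against 3113.3 and 2802.7. The other tested large intestinal markers were mixed. Slc26a3 was lowest there too, at 1374.4 against 3317.3 and 1746.6. Car1 (10672.3 there, against 11498.6 and 11417.9) and Ceacam1 (10752.3, against 10759.2 and 10912.1) changed little. Guca2a was lowest in cecal tumor 1, at 4380.2. The part of these genes in the P450 values was not tested. By the sex-linked transcripts Xist and Eif2s3y, duodenal tumor 2 and cecal tumor 2 came from females and the other 4 tumors from males, so sex was balanced between the sites. All 4 genes that passed also passed in the 4 male arrays alone.

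The partners and regulators of P450 enzymes were read from 9 lists. They named 85 measured genes, of which 65 could be tested. In cecal tumors 9 were higher and 8 lower, 26.2% against 10.5% over all tested genes. The median log2 fold of the 65 was -0.10, against -0.05 over all tested genes. The lists were chosen with earlier results of these data known. A list gene that passed the filter only through its bright site had to differ, so the share is a description. Each list's count below is to be set beside the same 10.5%, or 12.7% with the block. Of 8 electron transfer partners tested, 1 was lower: Cyb5a, a cytochrome b5 that passes electrons to P450 enzymes, had a mean of 4217 ± 522 in duodenal tumors against 2312 ± 103.5 in cecal ones (SD, n = 3 each), a significant fall (log2 fold -0.86 ± 0.12 SE, limma adjusted p = 0.00449). Its arrays read 4226.2, 3690.9 and 4734 in duodenal tumors and 2430.8, 2264.7 and 2240.7 in cecal ones, with no overlap. The other 7 did not pass, among them the cytochrome b5 reductase Cyb5r3 (log2 fold -0.38, limma adjusted p = 0.184). None of 11 tested haem synthesis and breakdown genes passed by limma at its brightest probe set, with 2 at an unadjusted p under 0.05, and those log2 folds ran from -0.50, for the biliverdin reductase Blvrb, to 0.27. A second probe set of Cpox, an enzyme of haem synthesis, did pass, at -0.61 (limma adjusted p = 0.0455, or 0.0679 with the block), while the brightest gave -0.23 (adjusted p = 0.55). Alas1, the first enzyme of haem synthesis, read 1556.1, 1706.8 and 1757.7 against 2079.6, 2116.6 and 1867.1 (log2 fold 0.27, limma adjusted p = 0.204).

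Among sensors of foreign chemicals and bile acids, 2 of 12 tested genes passed, both higher in cecal tumors. Nr1h4, the bile acid receptor FXR, read 154.6, 76.9 and 125.9 in duodenal tumors and 819.3, 598.6 and 472.5 in cecal ones (log2 fold 2.27 ± 0.27 SE, limma adjusted p = 0.00192). Nr1i2, the xenobiotic receptor PXR, read 127.1, 106.7 and 148.6 against 217.1, 216.8 and 222.3 (log2 fold 0.72, adjusted p = 0.0328). A second Nr1i2 probe set (0.38) fell short (adjusted p = 0.255). Leaving out any array except duodenal tumor 3 ended the Nr1i2 call (adjusted p = 0.0755 to 0.109). The brightest of the list, Nfe2l2 (log2 fold -0.46), an oxidative stress factor, and Pparg (0.44), a fatty acid receptor, had adjusted p-values of 0.0718 and 0.185. Ahr, the dioxin receptor, did not pass (log2 fold -0.24, limma adjusted p = 0.406).

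Of 12 tested liver and gut factors that drive P450 genes, 3 were higher and 2 lower in cecal tumors. The intestinal factors Cdx1 (log2 fold 1.57 ± 0.23 SE) and Cdx2 (1.63 ± 0.16) were higher, with limma adjusted p-values of 0.00496 and 0.000782. Hnf4a, which maintains gut and liver epithelium, was 3422 ± 246 in duodenal tumors and 4846 ± 386 in cecal ones (SD, n = 3 each; log2 fold 0.50, limma adjusted p = 0.0266). With any 1 array left out that probe set missed the threshold (0.0535 to 0.0974), at log2 folds of 0.44 to 0.56. The other 3 Hnf4a probe sets also passed, at 0.71, 0.73 and 0.85 (limma adjusted p = 0.0109, 0.038 and 0.00741). Gata4, a factor of the upper gut, was lower in cecal tumors, by at least 4.19-fold (limma adjusted p = 0.00193). Foxa1, a pioneer factor, had a log2 fold of -0.65 (adjusted p = 0.0275). Only without duodenal tumor 2 or cecal tumor 3 did it still pass when an array was left out (otherwise 0.0811 to 0.106).

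Among enzymes that work on products of P450 enzymes, both tested epoxide hydrolases were lower in cecal tumors. Ephx2, the soluble epoxide hydrolase that opens the epoxides made by enzymes such as Cyp2c23, read 751.8, 313.4 and 836.1 in duodenal tumors and 132.8, 134.8 and 141.1 in cecal ones (log2 fold -1.98 ± 0.33 SE, limma adjusted p = 0.00851). The microsomal hydrolase Ephx1 read 822.1, 1400.1 and 1110.1 against 323.3, 727.2 and 442.5 (log2 fold -1.18, limma adjusted p = 0.0455, or 0.00289 with the block). It no longer passed without duodenal tumor 2 or 3, or without cecal tumor 1 or 3 (0.0986 to 0.135). Those were 2 of 4 tested genes of that list, with none higher, and Hpgd, which breaks down prostaglandins, did not pass (log2 fold -0.44, adjusted p = 0.524). Nqo1, a quinone reductase under Ahr and Nrf2 control, was lower in cecal tumors (log2 fold -1.23, limma adjusted p = 0.0265), while Tiparp, the other tested Ahr target outside the P450 family, did not pass (0.20, adjusted p = 0.405). Nqo1 no longer passed when cecal tumor 1 (0.105), cecal tumor 3 (0.0697) or duodenal tumor 1 (0.0515) was left out. Aldh3a1, another such target, read 258.1, 77.7 and 295.4 against 14, 47 and 5.3 and was too dim to be tested.

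In the retinoic acid list, 1 of 10 tested genes was lower and none higher, near the 10.5% over all tested genes. The block gave 3 lower, against 12.7% of all tested genes. Rdh10, which makes retinaldehyde, fell from 4019 ± 49.1 to 2292 ± 560 (log2 fold -0.84, limma adjusted p = 0.0213), and did not pass when cecal tumor 2 or any duodenal tumor was left out (0.0502 to 0.0676). The retinaldehyde dehydrogenase Aldh1a1 did not pass (log2 fold 0.16, adjusted p = 0.815). With the block the retinol transporter Stra6 (log2 fold -0.83, adjusted p = 0.0171, or 0.331 without it) and the receptor Rarb (-1.27, adjusted p = 0.0464, or 0.23 without it) also passed. In the vitamin D list, 1 of 2 tested genes passed: S100g, an intestinal calcium binding protein that vitamin D induces, was lower in cecal tumors, by at least 17.5-fold (limma adjusted p = 0.00456). The receptor Vdr did not pass (log2 fold 0.21, adjusted p = 0.586).

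Of 5 tested genes of steroid metabolism outside the P450 family, 4 passed, all of them enzymes and all higher in cecal tumors. The other, the glucocorticoid receptor Nr3c1, did not pass (log2 fold 0.24, limma adjusted p = 0.527). Hsd11b2, which inactivates glucocorticoids, read 432, 454.2 and 355.7 in duodenal tumors and 3404, 3356 and 3615.2 in cecal ones (log2 fold 3.02 ± 0.13 SE, limma adjusted p = 1e-05). Hsd11b1 (log2 fold 1.20), Hsd17b2 (1.34) and Hsd3b3 (at least 4.15-fold higher in cecal tumors) passed with limma adjusted p-values of 0.00337, 0.000635 and 0.011. The Hsd3b3 probe set (1427377_x_at) carries a suffix for sequences shared with other genes, and its call was lost in the male arrays alone (0.0508).

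**Figure D4:**
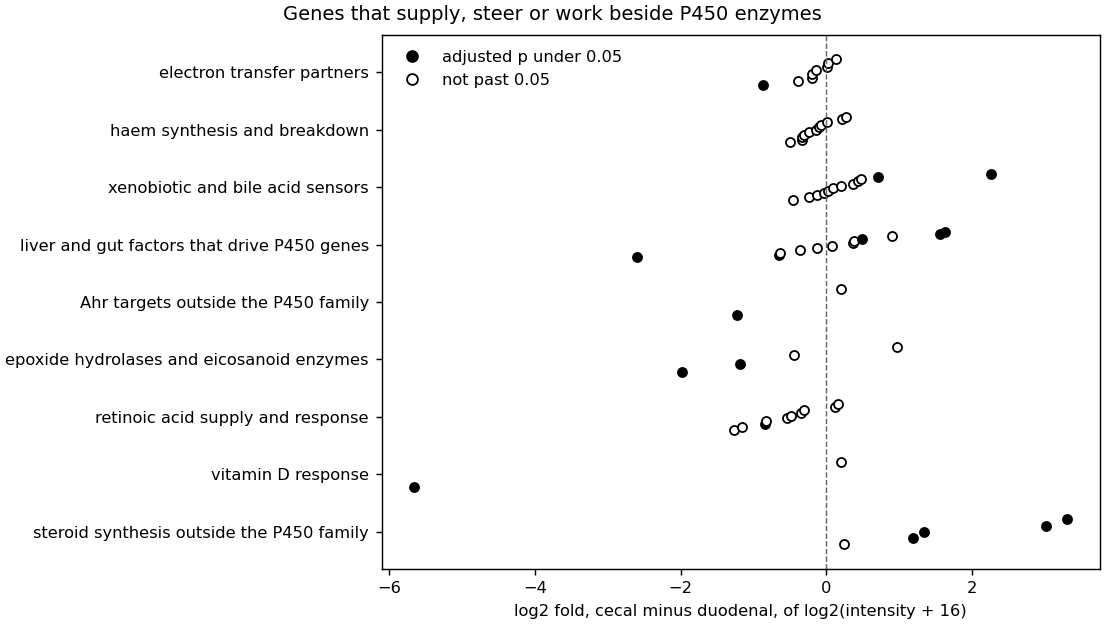
Log2 fold (cecal minus duodenal) of each tested gene of the 9 lists of P450 partners and regulators; filled points passed the test at an adjusted p of 0.05, and points are spread vertically within a list for legibility. Filled points of the steroid and sensor lists lie to the right, and those of the electron transfer, epoxide hydrolase, Ahr target, retinoic acid and vitamin D lists lie to the left.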

How the data were processed

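Tumor RNA of 6 mice was hybridised to 1 array each. The deposited values are linear probe set intensities that the authors made with MAS5, as listed in the submitters' processing notes. For MAS5 the sources used here give neither a version nor a scaling target, and no detection calls were used. Groups and replicate numbers came from the sample titles, and the labels state 6 different mice. No normalization was added. Array medians were 164.6 to 181.8. Precision is limited by the number of arrays. Gene names came from the platform annotation. All 75 gene ids were found in RefSeq (GRCm38.p6) and 0 symbols changed. No build is stated for the array, so coordinates are those of the RefSeq promoters only.

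Probe sets above their array's 40th percentile on at least 3 of 6 arrays were fitted as log2(intensity + 16) with limma 3.58.1 in R 4.3.3 (lmFit, eBayes with trend), two-sided, with Benjamini-Hochberg adjustment over all of them and a threshold of 0.05. The offset understates folds of dim genes. The brightest tested probe set on average stood for a gene. A fold given as at least N sets the dim site at its 40th percentile. The probe set members, lists, tests and alternatives were chosen with earlier results of these data known. The naming rule allowed every P450 gene, each list gene that passed and the 2 brightest of a list. Ahr, Aldh3a1, Stra6, Rarb, Cpox, Nr3c1, Fgb, Fgg, Ahsg and Cd68 were named after their values were seen. Tumors sharing a number had deviations from their group means that correlated at 0.274, 0.299 and 0.203, against -0.2 to -0.026 for other pairs. Deviations within a group sum to 0, so these correlations are not independent, and both tumors numbered 2 came from females. Only the block fit took the numbers as pairing the samples, and the main fit did not. That pairing comes from the data and not from the labels. The fit was tested on simulated data. In all, 17 alternatives were run, 6 of them leaving out 1 array while keeping the tested probe sets. Figures used Python 3.11.15, pandas 2.3.3 and matplotlib 3.10.9.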

Additional observations from a re-analysis of the deposited data

How the results depend on the processing

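The count of P450 genes, and of P450 probe sets, that passed was 4 in the main fit and 4 to 6 under every alternative, leave-one-out fits included (4 to 6). Cyp2c55, Cyp2d34, Cyp2d26 and Cyp2c23 kept their direction and passed in all 17 alternatives. Leaving out 1 array at a time, the adjusted p of Cyp2d26 reached 0.0497 and that of Cyp2c23 0.0357. The replicate number as a block gave 6 P450 genes, adding Cyp1b1 and Cyp27a1, and took the partner and regulator lists from 17 to 19 genes; it changed no other call among these. Cyp27a1 also passed with an offset of 64 (0.0479), with the stricter filter (0.0467) and with p-values adjusted over genes (0.0489). With no filter on dim probe sets Cyp2d12 was the 1 further P450 gene to pass (0.0417), at intensities below the level on all arrays. Folds near 0 changed sign. With the male arrays alone Cyp2c65 had -0.04 and Cyp2c68 -0.12, and Cyp4f16 had 0.01 when its probe sets were averaged. Over the leave-one-out fits, log2 folds were -0.09 to 0.12 for Cyp39a1, -0.01 to 0.66 for Cyp3a13, -0.20 to 0.18 for Cyp4b1 and -0.35 to 0.04 for Cyp4f16. The lists gave 12 to 14 genes over the leave-one-out fits. Over the whole array 1290 probe sets passed, 695 with the male arrays alone and 658 to 1194 over the leave-one-out fits, which hold fewer samples. The 2 alternatives that work by gene give no count of probe sets. No probe set named the planned sex-linked gene Ddx3y, so the sex of the mice rests on Xist and Eif2s3y.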
